A study of Mus musculus with 6 samples.

Results

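The genes described here encode the heat shock and J-domain chaperones of mouse quadriceps muscle. They are the symbols of the HSP70 and HSP110 family (Hspa and Hsph1), the HSPB family (Hspb), the mitochondrial chaperonin (Hspd1 and Hspe1) and J-domain proteins of classes A, B and C (Dnaja, Dnajb and Dnajc), with 3 pseudogene symbols left out. Of 69 such genes, 59 reached 1 TPM in at least 3 libraries and were kept, among 11099 genes kept in all. TPM is the number of transcripts of a gene per 1000000 transcripts in a library, corrected for transcript length, so it can be compared between genes but keeps no sequencing depth. The other 10 (Dnajb3, Dnajb7, Dnajb8, Dnajb13, Dnajc5b, Dnajc5g, Dnajc6, Dnajc22, Hspa12a and Hspb9) were below that level and were not tested. Dnajc22, Dnajc5b and Dnajc5g were listed at 0 in all 6 libraries. Just outside the filter was Hspa12a, an atypical HSP70, with 1.04, 1.24 and 0.848 TPM in homozygous replicates 1 to 3 and 0.660, 0.628 and 0.446 TPM in WT replicates 1 to 3, and the member of lowest mean inside it was Hspa2, at 1.69 TPM.

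The study compared 2 genotypes by poly-A selected, stranded RNA-seq of flash-frozen quadriceps. In the homozygous group (3 libraries) both copies carried an allele that copies the human single-nucleotide variant rs6190, which lies in the coding part of the glucocorticoid receptor gene, and in the WT group (3 libraries) both copies carried the reference allele. All animals were males of 4 months, littermates of heterozygous parents, with tissue taken about 4 hours after lights on (ZT4). The labels name no treatment. The allele is inherited and so is present in every cell type, and whole muscle was sampled, so fewer cells of a type and less RNA per cell cannot be told apart. The labels give each library as a separate sample but do not name animals, so p-values measure the spread between these samples.

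HSP70 proteins hold unfolded stretches of other proteins and release them in a cycle driven by ATP. J-domain proteins bring clients to an HSP70 and start its ATP hydrolysis, and HSP110 proteins and BAG proteins let the nucleotide go so that the cycle can restart. Small heat shock proteins bind unfolding proteins without ATP, and in muscle they sit on the contractile apparatus, where filaments are under mechanical strain. Many of these genes are switched on by heat shock factors, which bind inverted repeats of GAA in promoters.

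The stretches before 4 gene starts are shown as examples that differ in the heat shock element unit: the inducible Hspa1a, and 3 small heat shock genes whose groups did not overlap, with 2, 1 and no unit. They were chosen after their values were seen. They come from RefSeq on GRCm38.p6, are written 5′ to 3′ on the gene's own strand and leave out exon bases, and capitals mark the unit GAANNTTC. Hspa1a lies at chr17:34972157-34972406 on the minus strand, Hspb1 at chr5:135887669-135887918, Hspb6 at chr7:30553063-30553267, and Hspb7 at chr4:141420529-141420778, all 3 on the plus strand.
Hspa1a: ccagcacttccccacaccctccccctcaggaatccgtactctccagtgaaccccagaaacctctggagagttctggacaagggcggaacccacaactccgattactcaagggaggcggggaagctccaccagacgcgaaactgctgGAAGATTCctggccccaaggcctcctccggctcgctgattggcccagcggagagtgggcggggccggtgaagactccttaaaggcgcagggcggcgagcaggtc
Hspb1: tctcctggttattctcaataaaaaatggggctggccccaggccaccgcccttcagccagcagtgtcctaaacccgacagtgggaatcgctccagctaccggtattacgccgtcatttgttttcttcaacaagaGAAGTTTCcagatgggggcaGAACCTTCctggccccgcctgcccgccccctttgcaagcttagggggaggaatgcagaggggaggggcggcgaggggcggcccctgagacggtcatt
Hspb6: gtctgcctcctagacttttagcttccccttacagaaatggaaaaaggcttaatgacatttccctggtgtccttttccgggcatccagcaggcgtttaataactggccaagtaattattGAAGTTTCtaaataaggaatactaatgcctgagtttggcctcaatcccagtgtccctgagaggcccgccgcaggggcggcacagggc
Hspb7: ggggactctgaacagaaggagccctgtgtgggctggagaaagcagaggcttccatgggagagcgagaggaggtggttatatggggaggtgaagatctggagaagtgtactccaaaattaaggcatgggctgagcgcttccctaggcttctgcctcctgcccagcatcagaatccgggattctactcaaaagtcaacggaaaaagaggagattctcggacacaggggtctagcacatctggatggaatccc
Hspa1a had 1 unit, starting at position -104 from the gene start, Hspb1 had 2, at -117 and -97, and Hspb6 had 1, at -120. RefSeq gives Hspb6 a pair of starts, at 30552540 and 30553301 on chromosome 7. The stretch shown precedes the downstream one and lies inside the longer gene model of GENCODE M21, which begins at 30552178, and the window before the upstream start held 0 units. Hspb7, which had the largest difference between the groups of all 59 genes, had no unit among the 250 bases before its start.

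Of the 59 genes, 49 had a RefSeq window of 250 bases before the start. Either form of the unit, GAANNTTC or TTCNNGAA (each reads the same on both strands, and overlapping matches were allowed), was found in 14 of them (28.6%), against 14.5% of 27025 genes with such a window. In the list of heat-inducible members the unit was found in 7 of 9 (77.8%), and in the other members in 7 of 40 (17.5%). An array of 3 GAA or TTC triplets alternating in direction occurred in 3 members (6.12%) against 0.514% of all genes. The 3 were Hspd1, Hspe1 and Dnajb6, named after their values were seen. Hspd1 and Hspe1 lie head to head on chromosome 1, so their windows may share bases, which was not checked. A match is a string of letters and was not measured as binding. The median log2 difference relative to all genes was 0.25 for the 14 genes with a unit and 0.09 for the 35 without. Homozygous libraries were all above WT for 7 of the 14 and 19 of the 35, against 34.7% of all genes. At an unadjusted p under 0.05, 6 and 14 were higher, against 23.7% of all genes. The highest value (1.58, Hspb7) was in the set without a unit. The difference between the sets was not tested.

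Small heat shock and HSP70 genes were the most abundant chaperone RNAs. Over all 6 libraries, mean abundance per length was highest for Hspb6 (674 TPM), followed by Hspa8 (491 TPM), Hspb8 (303 TPM), Hspb7 (243 TPM), Hspb1 (232 TPM) and Hspa9 (171 TPM). Of the 59 genes, 10 were at 100 TPM or more and 39 at 10 TPM or more. The 59 together made up 0.419%, 0.460% and 0.393% of all TPM in homozygous replicates 1 to 3 and 0.345%, 0.321% and 0.303% in WT replicates 1 to 3. All 3 homozygous libraries were above all 3 WT libraries in this share, as they were for 34.7% of all genes taken singly. Abundant members weigh most in such a sum. Hspb6 averaged 844 TPM in the homozygous group and 504 TPM in WT, and Hspb7 360.5 and 125 TPM. Hspa8 and Hspb8 had nearly equal group means.

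No chaperone gene passed the test between the genotypes. With limma on log2(TPM + 1), 0 of the 59 had a Benjamini-Hochberg adjusted p under 0.05 over all 11099 genes, and the same held for all genes (0%). The smallest adjusted p among the 59 was 0.168. At an unadjusted p under 0.05, 25 of the 59 (42.4%) were higher in the homozygous libraries and 0 were lower, against 23.7% and 0.55% of all genes. The homozygous libraries all lay above the WT libraries for 32 members (54.2%) and all below for 0, against 34.7% and 0.73% of all genes. Differences were positive for 53 members and negative for 6, and for all genes they were positive for 9526 and negative for 1573.

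Most genes of the whole table leaned the same way, so each difference is also given relative to the median of all genes, which was 0.26 for homozygous minus WT in log2(TPM + 1). The members' median difference was 0.37, or 0.10 relative to all genes, with 43 members above the median of all genes and 16 below. When every library was centred on its median, 4 members (6.78%) were higher and 1 (1.69%) lower at an unadjusted p under 0.05, against 3.65% and 4.61% of all genes. After that centring the groups did not overlap for 5 members that were higher (8.47%, against 6.79% of all genes) and 2 that were lower (3.39%, against 8.38%). The 5 were Dnaja4, Dnajb4, Dnajc16, Hspa1a and Hspa1l, and the 2 were Dnajc19 and Hspe1. In the descriptions of single genes, overlap refers to TPM without this centring. Quantile normalization gave 6 higher (10.2%) and 1 lower (1.69%) at the same p, against 4.54% and 4.34% of all genes. With it the homozygous libraries were all above for 10 members (16.9%, against 8.05%) and all below for 1 (1.69%, against 7.34%). The 1 lower gene at that p was Dnajc19 under both scalings. Leaving out homozygous replicate 2 took the count of higher members at an unadjusted p under 0.05 from 25 to 9 (against 9.69% of all genes), and leaving out homozygous replicate 3 took it to 13 (against 12.2%).

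**Figure D1:**
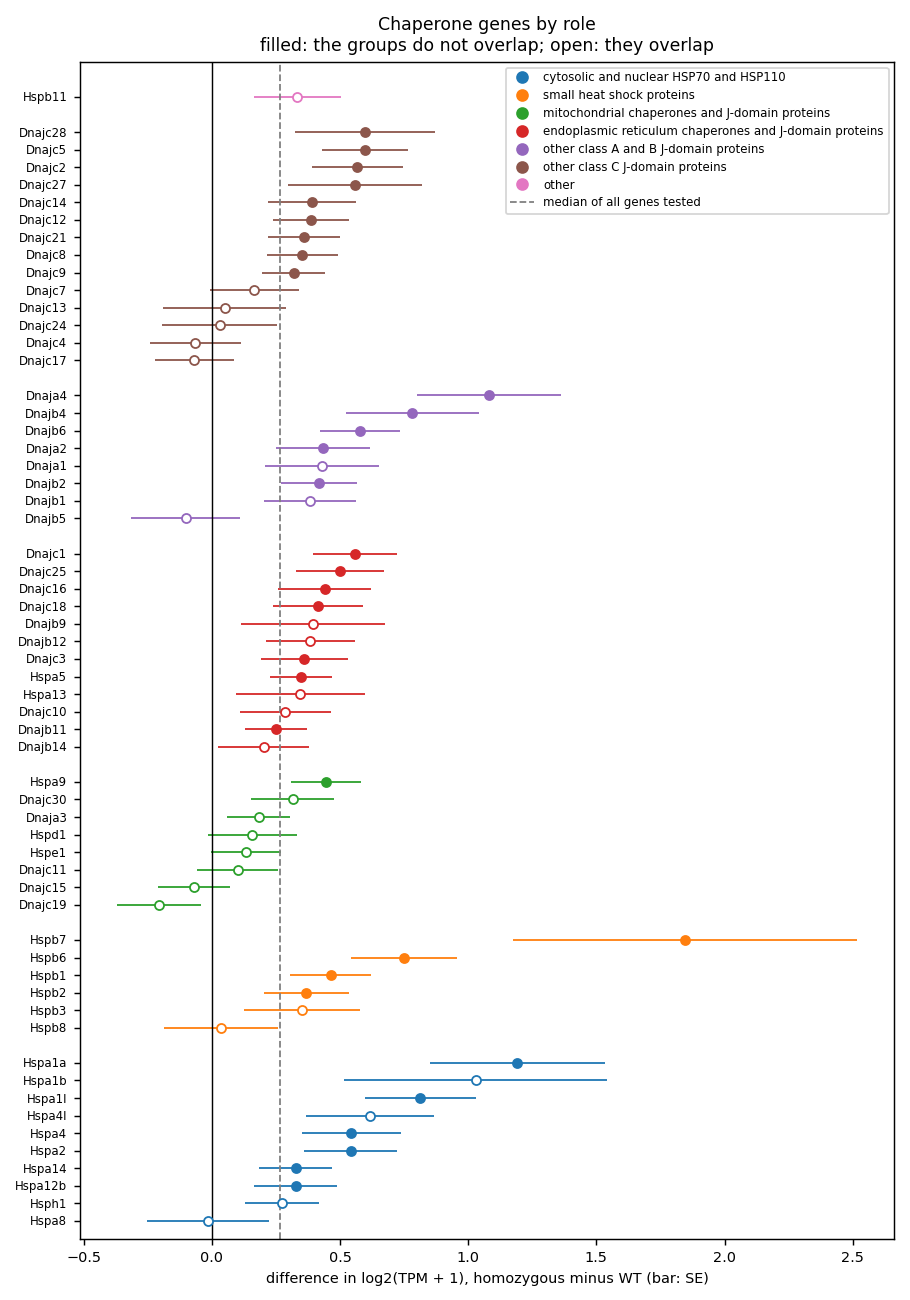
Difference between the genotypes for each of the 59 chaperone genes, in log2(TPM + 1), homozygous minus WT, with its standard error as a bar, grouped by role; filled points mark the 32 genes whose 3 homozygous libraries all lie above the 3 WT libraries, and the dashed line is the median of all 11099 genes (0.26). Hspb7 lies farthest to the right with the widest bar (1.85, SE 0.67), and most mitochondrial genes lie left of the dashed line.

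Cytosolic and nuclear HSP70 and HSP110 genes had the highest group median of the reported fit. Of 10 tested, 9 were above the median of all genes, 5 were higher at an unadjusted p under 0.05, 6 had homozygous libraries all above WT, and the group median relative to all genes was 0.28. Counts in this and the other role groups are to be read beside those of all genes. Of all genes, 23.7% were higher at that p and 34.7% had homozygous libraries all above WT. The small heat shock proteins were above this group with library weights (0.35 against 0.21), with the slow-fibre covariate (0.23 against 0.11) and without WT replicate 3 (0.27 against 0.20). Hspa1a, 1 of the pair of inducible HSP70 genes (chr17:34969190-34972156), stood at 5.74, 11.9 and 4.53 TPM in homozygous replicates 1 to 3 and at 2.88, 3.24 and 1.46 TPM in WT replicates 1 to 3. The groups did not overlap, and homozygous replicate 2 was by far the highest. The log2 difference was 1.19 (SE 0.34, adjusted p = 0.168), or 0.93 relative to all genes, and 0.58 relative to all genes without homozygous replicate 2. Hspa1b, its near-identical neighbour, stood at 4.59, 7.03 and 3.79 TPM against 1.93, 5.31 and 0.370 TPM in the same order, and here WT replicate 2 overlapped the homozygous libraries. Its log2 difference was 1.03 (SE 0.51, adjusted p = 0.245).

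Reads from Hspa1a and Hspa1b can be split between the copies in either way, so their sum is the safer quantity. The sum was 10.3, 19.0 and 8.33 TPM in homozygous replicates 1 to 3 and 4.81, 8.55 and 1.83 TPM in WT replicates 1 to 3. WT replicate 2 (8.55) lay just above homozygous replicate 3 (8.33), and the ratio of the means was 2.48. Hspa1l, the third gene of this cluster, which is best known from testis and shares sequence with both, stood at 22.9, 27.0 and 23.3 TPM against 18.4, 13.6 and 9.67 TPM. Its groups did not overlap, and the log2 difference was 0.81 (SE 0.22, adjusted p = 0.168).

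Hspa8, the constitutive cytosolic HSP70 and the most abundant HSP70 gene here, had nearly the same mean in both groups. It stood at 625, 485.5 and 361 TPM against 423, 433 and 618.5 TPM, so the groups overlapped over most of their range. The log2 difference was -0.02 (SE 0.24, adjusted p = 0.969), which is -0.28 relative to all genes. Hspa2, another HSP70 best known from testis, stood at 2.20, 2.53 and 1.82 TPM against 1.18, 1.53 and 0.866 TPM, without overlap.

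HSP110 proteins act as nucleotide exchange factors for HSP70. Hspa4 stood at 38.9, 48.1 and 43.1 TPM against 35.3, 32.7 and 21.8 TPM, with no overlap and a log2 difference of 0.54 (SE 0.19, adjusted p = 0.175). Hsph1, the heat-inducible HSP110, stood at 30.8, 28.2 and 31.1 TPM against 24.5, 28.7 and 21.3 TPM, with WT replicate 2 inside the homozygous range. Its log2 difference of 0.27 was almost that of the median gene (0.01 relative to all genes), and this small value turned negative under quantile normalization (-0.01) and with a pseudocount of 0.1 (-0.04).

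Small heat shock proteins included the gene with the largest difference and another with nearly equal group means. Of 6 tested, 5 were above the median of all genes, 3 were higher at an unadjusted p under 0.05, and 4 had homozygous libraries all above WT, with a group median of 0.15 relative to all genes. Hspb7 (chr4:141420779-141425311), a small heat shock protein of heart and skeletal muscle that binds filamin C, stood at 255, 502 and 324 TPM in homozygous replicates 1 to 3 and at 226, 114.5 and 33.5 TPM in WT replicates 1 to 3. The groups did not overlap, but WT replicate 1 came within a narrow gap of homozygous replicate 1, and the WT libraries were spread widely. The log2 difference was 1.85 (SE 0.67, adjusted p = 0.184), or 1.58 relative to all genes, and 0.90 relative to all genes without WT replicate 3.

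Hspb6 (HSP20), a muscle protein phosphorylated by protein kinase A and the most abundant of the 59 genes, stood at 826.5, 1003 and 704 TPM against 635, 447 and 431 TPM. All homozygous libraries were above all WT libraries, and the log2 difference was 0.75 (SE 0.21, adjusted p = 0.168). Hspb1, which protects actin filaments, stood at 258, 299 and 250 TPM against 233, 182 and 173 TPM, again without overlap, with a log2 difference of 0.46 (SE 0.16, adjusted p = 0.171). Hspb2, which forms complexes with Hspb3 in muscle, stood at 115, 148 and 133 TPM against 84.2, 114 and 110 TPM, with a narrow gap between the groups. Relative to all genes, its difference of 0.10 turned to -0.07 without WT replicate 1.

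Hspb3 stood at 33.5, 53.9 and 53.0 TPM against 32.0, 31.0 and 45.6 TPM, so homozygous replicate 1 fell inside the WT range. Hspb8, the partner of Bag3 in chaperone-assisted autophagy, stood at 276, 287 and 346.5 TPM against 259.5, 415 and 236 TPM. WT replicate 2 was its highest library, the group means were 303 ± 38.0 TPM (SD, n = 3) and 303.5 ± 96.9 TPM (SD, n = 3), and the log2 difference relative to all genes was -0.23 (adjusted p = 0.923).

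**Figure D2:**
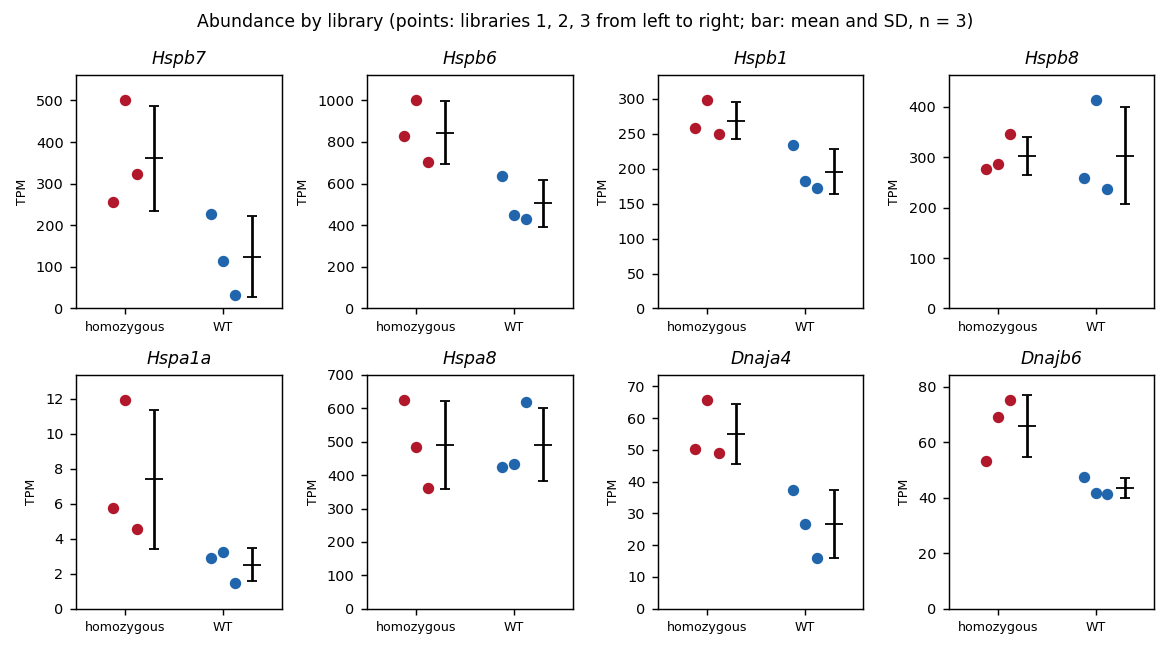
Abundance in TPM of 8 chaperone genes in each library, with homozygous points in red and WT points in blue, replicates 1 to 3 from left to right, and the group mean with its SD (n = 3) as a black bar. Points of Hspb6 and Dnaja4 do not overlap between the groups, while those of Hspa8 and Hspb8 overlap.

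Mitochondrial chaperones were the only role group whose median lay below that of all genes. Of 8 tested, 6 were below the median of all genes, 1 was higher at an unadjusted p under 0.05, 1 had homozygous libraries all above WT, and the group median relative to all genes was -0.12. Of the 13 processing alternatives, 3 (median centring, no filter and the replicate block) cannot move a relative difference here. In the other 10 that median was negative (-0.19 to -0.02), and the medians of the other 5 groups with more than 1 gene were positive. The difference between the groups of genes was not tested. Above the median of all genes were Dnajc30 (0.05 relative to all genes, with overlap) and Hspa9. Hspa9 (mortalin), the HSP70 that pulls proteins into the matrix, stood at 204, 197 and 189 TPM against 161, 148 and 126 TPM. Its groups did not overlap, and the log2 difference was 0.45 (SE 0.14, adjusted p = 0.168), or 0.18 relative to all genes.

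Hspd1 (HSP60) and Hspe1 (HSP10), the barrel and lid of the matrix chaperonin, overlapped between the groups. Hspd1 stood at 103, 91.6 and 81.1 TPM against 88.1, 95.4 and 65.2 TPM, and Hspe1 at 105, 107.5 and 119 TPM against 111.5, 103 and 88.7 TPM. Relative to all genes their differences were -0.11 and -0.13. Dnaja3, the J-domain partner of Hspa9 in the matrix, stood at 54.5, 45.6 and 48.8 TPM against 45.6, 41.9 and 42.9 TPM, which is 0.18 in log2 and -0.08 relative to all genes.

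Dnajc19 and Dnajc15, J-domain proteins of the inner-membrane import motor, had negative differences. Dnajc19 stood at 111, 95.1 and 89.9 TPM against 104, 101 and 139 TPM, and homozygous replicate 1 was above 2 of the WT libraries. Its log2 difference was -0.21 (SE 0.16, adjusted p = 0.421), or -0.47 relative to all genes, the lowest of the 59. Dnajc15 stood at 117, 99.4 and 97.7 TPM against 109.5, 98.0 and 122.5 TPM, which is -0.07 in log2 and -0.33 relative to all genes (adjusted p = 0.753). WT replicate 3 held the highest value of both genes.

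All 12 endoplasmic reticulum chaperones and J-domain proteins had positive differences within a narrow range, and 9526 of all 11099 genes were also positive. Relative to all genes they lay between -0.06 and 0.29, with a median of 0.11, 5 were higher at an unadjusted p under 0.05, and 7 had homozygous libraries all above WT. Hspa5 (BiP), the HSP70 of this compartment, stood at 76.5, 72.4 and 66.7 TPM against 56.6, 58.7 and 53.3 TPM. The groups did not overlap for this gene, and the log2 difference was 0.35 (SE 0.12, adjusted p = 0.171). Relative to all genes that is 0.08, and with median centring the groups overlapped (limma adjusted p = 0.908).

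Of the J-domain proteins of this compartment, Dnajc1 (ERdj1) had the largest difference relative to all genes (0.29, adjusted p = 0.168), followed by Dnajc25 (0.23, adjusted p = 0.171), both without overlap and both named after their values were seen. The other partners of BiP described here were closer to the median gene. Dnajb11 (ERdj3) stood at 23.4, 25.9 and 26.5 TPM against 20.8, 21.5 and 20.9 TPM, without overlap, at -0.01 relative to all genes. Dnajc3 (p58IPK) stood at 6.66, 8.30 and 9.02 TPM against 6.44, 6.56 and 4.99 TPM, with a narrow gap between the groups, at 0.10 relative to all genes. Dnajb9 (ERdj4) stood at 15.6, 15.4 and 13.8 TPM against 12.5, 16.4 and 6.55 TPM and overlapped. Its value of 0.13 relative to all genes became -0.15 without WT replicate 3. Dnajc10 (ERdj5), a disulfide reductase, stood at 7.90, 8.46 and 10.7 TPM against 7.56, 8.24 and 5.83 TPM and overlapped, at 0.02 relative to all genes.

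Of the 8 other class A and B J-domain proteins, which mostly serve cytosolic HSP70, 7 were above the median of all genes. In this group 5 were higher at an unadjusted p under 0.05, 5 had homozygous libraries all above WT, and the group median relative to all genes was 0.17. Dnaja4 (chr9:54698873-54716315) stood at 50.2, 65.8 and 49.1 TPM against 37.3, 26.7 and 16.0 TPM. All homozygous libraries were above WT, the ratio of the means was 2.06, and the log2 difference was 1.08 (SE 0.28, adjusted p = 0.168). Dnajb6 (chr5:29735688-29818134), a suppressor of protein aggregation whose mutations cause a limb-girdle muscular dystrophy, stood at 53.4, 69.0 and 75.2 TPM against 47.5, 41.6 and 41.2 TPM. Its WT libraries were close together and all below the homozygous ones, with a log2 difference of 0.58 (SE 0.16, adjusted p = 0.168).

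Dnajb4 stood at 31.5, 44.5 and 32.3 TPM against 23.9, 26.2 and 13.3 TPM, with no overlap and a log2 difference of 0.78 (SE 0.26, adjusted p = 0.171). Dnajb2 stood at 41.1, 53.9 and 54.8 TPM against 37.9, 38.3 and 34.4 TPM, also with no overlap. The heat-inducible Dnaja1 and Dnajb1, which are general partners of cytosolic HSP70, overlapped. Dnaja1 stood at 28.1, 27.9 and 28.4 TPM against 19.8, 29.4 and 14.9 TPM, and Dnajb1 at 3.89, 3.47 and 2.94 TPM against 2.22, 3.03 and 1.997 TPM. In both genes WT replicate 2 lay within or above the homozygous range. Dnajb5 was the 1 gene of the group with a negative difference, at 68.1, 68.2 and 56.7 TPM against 56.5, 59.7 and 96.5 TPM (-0.10 in log2, adjusted p = 0.756), and WT replicate 3 was its highest library.

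Class C J-domain proteins on none of the lists above were the largest group. They were grouped by symbol, not by where the protein lies in the cell. Of 14 tested, 9 were above the median of all genes, 6 were higher at an unadjusted p under 0.05, 9 had homozygous libraries all above WT, and relative to all genes they ranged from -0.33 to 0.33 around a median of 0.09. Dnajc5 (cysteine string protein), a synaptic vesicle chaperone, stood at 11.7, 15.3 and 13.9 TPM against 10.3, 8.43 and 7.39 TPM. The groups did not overlap, and the log2 difference was 0.60 (SE 0.17, adjusted p = 0.168). Dnajc17 stood at 7.95, 9.13 and 8.16 TPM against 9.26, 7.43 and 10.04 TPM, and Dnajc4 at 24.2, 19.6 and 17.8 TPM against 20.6, 18.1 and 26.0 TPM. Both overlapped, with log2 differences of -0.07 and -0.06 (adjusted p = 0.780 and 0.820). Hspb11, an intraflagellar transport subunit despite its symbol, belongs to no role group and was at 0.07 relative to all genes, with overlap.

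Across roles, the list of 10 heat-inducible members (Hspa1a, Hspa1b, Hspa8, Hspb1, Hspb8, Hspd1, Hspe1, Hsph1, Dnaja1 and Dnajb1) did not share a direction relative to all genes. In it 6 were above the median of all genes and 4 below, 2 (Hspa1a and Hspb1) were higher at an unadjusted p under 0.05 with homozygous libraries all above WT, and the median was 0.06. Hspa8, described above as constitutive, is on this list and was its lowest gene, at -0.28. The others below were Hspb8, Hspd1 and Hspe1. Of all genes, 23.7% were higher at that p and 34.7% had homozygous libraries all above WT.

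**Figure D3:**
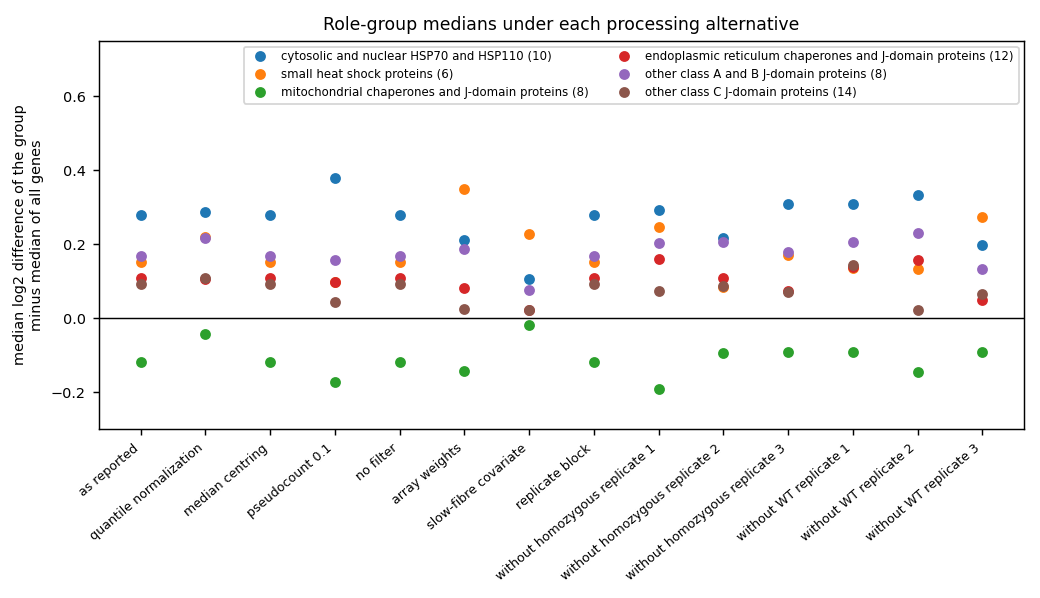
Median log2 difference of each role group minus the median of all genes, as reported and under 13 processing alternatives; the number of genes per group is in the legend, and some points cover each other. The mitochondrial group lies below 0 in every column and the other 5 groups lie above 0.

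Summed slow-fibre markers did not overlap between the groups, and several chaperones ranked the libraries as the slow-fibre genes did. The defining genes of slow fibres (11 of 11, with 0 at 0 in every library, among them Myh7 and Tnnc1) summed to 1902, 9714 and 2241 TPM in homozygous replicates 1 to 3 and to 1738, 1123 and 245 TPM in WT replicates 1 to 3. WT replicate 1 came close to homozygous replicate 1 in this sum, and homozygous replicate 2 was by far the highest. All 11 genes had positive differences, like 9526 of all 11099 genes, and 7 had homozygous libraries all above WT, against 34.7% of all genes. Of the 11, 0 passed the adjusted threshold of the limma fit. At an unadjusted p under 0.05, 1 was higher, against 23.7% of all genes. The 12 fast-fibre genes, all detected, summed to 9.67% to 13.1% of TPM in the homozygous group and 11.6% to 23.2% in WT, and WT replicate 3 had the 23.2%. Within that list Myh1 and Myh2, the myosins of fast IIx and IIa fibres, were higher in the homozygous libraries without overlap (log2 differences 1.77 and 1.36, adjusted p = 0.168 for both), and the other 10 were lower with overlap. Hspb7, Hspa1l, Hspa4, Dnajc5, Dnajc21 and Dnajc28 ranked the 6 libraries in exactly the order of the mean log2 slow-fibre value. That is 6 of 59 members, against 470 of all 11099 genes (4.24%). In that order all homozygous libraries lie above all WT libraries, so only genes without overlap in that direction can share it. Such genes were 32 of the 59 members and 3856 of all genes, and the link to fibre type was not tested.

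With that slow-fibre value as a covariate in the limma fit, 0 members were higher and 0 lower at an unadjusted p under 0.05, against 4.9% and 0.505% of all genes. Relative to all genes, Hspb7 went from 1.58 to 0.25, Hspa1a from 0.93 to 0.30, Dnaja4 from 0.82 to 0.30, Hspb6 from 0.49 to 0.27 and Dnajb6 from 0.31 to 0.29. The part of fibre type in these differences cannot be told apart from genotype with 3 libraries a group, since the covariate itself differs between the groups.

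**Figure D4:**
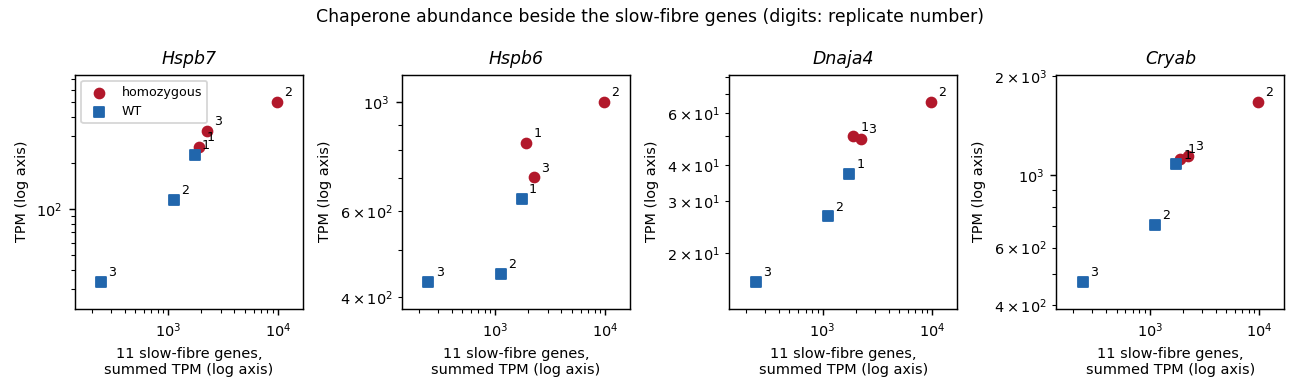
Abundance of Hspb7, Hspb6, Dnaja4 and Cryab in TPM against the summed TPM of the 11 slow-fibre genes, both on log axes, 1 point per library with its replicate number. Homozygous replicate 2 (9714 TPM of slow-fibre genes) is highest and WT replicate 3 (245 TPM) lowest in all 4 panels.

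WT replicate 3 stood apart. It had the lowest value of the 6 libraries in 43 of 59 members (72.9%) and in 55.8% of all genes, and limma gave it the lowest library weight (0.199, against 0.823 to 2.50 in the other 5). Without it, 22 of the 59 members were higher at an unadjusted p under 0.05, against 2345 of all 11099 genes (21.1%). Of these 22 members, 19 were among the 25 found with all libraries, and Hspa12b, Hspb2 and Hspb3 were not. In the same fit the members' median relative to all genes was 0.08. When the libraries were weighted, 2 of the 59 members passed an adjusted p under 0.05, against 810 of all 11099 genes (7.3%). The 2 were Hspb2 and Dnajb6 (the smaller adjusted p was 0.0434). Other marker lists are given by the range of their summed TPM. Schwann cell genes (5 listed, all detected) summed to 14.8 to 70.4 TPM in the homozygous group and 8.07 to 12.4 TPM in WT. Endothelial genes (7) summed to 48.2 to 56.7 and 37.9 to 54.0 TPM, fibroblast genes (6) to 167 to 196 and 88.2 to 239 TPM, and satellite cell genes (5) to 13.7 to 17.8 and 7.71 to 12.7 TPM. Immune genes (6) summed to 6.91 to 10.01 and 3.20 to 7.12 TPM, adipocyte genes (6) to 147 to 186 and 156 to 178 TPM, and blood genes (5) to 536 to 781 and 476 to 851 TPM. Mitochondrially encoded transcripts made up 20.9% to 27.4% of TPM in the homozygous group and 14.3% to 33.9% in WT. Apart from the slow-fibre covariate, the part of these lists in the chaperone differences was not tested. Nr3c1, the glucocorticoid receptor gene, stood at 20.01, 19.7 and 19.5 TPM against 11.5, 14.8 and 8.07 TPM, and since both alleles make RNA, this level does not check the genotype labels.

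The same comparison was made for single isoforms. Among 124 isoforms of 58 member genes that passed the same filter, 0 had an adjusted p under 0.05 (smallest 0.238), against 0.0425% of all 21165 isoforms. At an unadjusted p under 0.05, 29 (23.4%) were higher and 2 (1.61%) lower, against 14.2% and 1.52% of all isoforms. Homozygous libraries were all above WT for 43 (34.7%) and all below for 1 (0.806%), against 25.6% and 2.11%. The 5 isoforms with the smallest p belonged to Hsph1, Dnajb12, Hspb6, Dnaja4 and Hspa1l. The isoform's share of its gene's TPM did not overlap between the groups for 12 of the 124 that were higher and 12 that were lower in the homozygous libraries. Of the 124, 99 belonged to 33 genes with several tested isoforms, and shares within 1 gene depend on each other. The 12 higher include an isoform of Hspa2 that held 100% after rounding in WT replicate 2 and in every homozygous library. For that isoform the call rests on digits lost in rounding. The same count over all isoforms was not made, so the counts of shares have no background to be read beside. In Hspb6, Dnaja4 and Hspa1l the isoform made up nearly all of the gene's TPM in every library, from 92.5% in 1 WT library of Hspb6 up to 100%.

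In Hsph1 and Dnajb12 the isoform was a minor share of the gene. ENSMUST00000202089.3 of Hsph1 stood at 8.40, 5.64 and 3.77 TPM in homozygous replicates 1 to 3 and at 1.71, 0.102 and 0 TPM in WT replicates 1 to 3. It made up 19.8% ± 7.57 (SD, n = 3) of Hsph1 TPM in the homozygous group and 2.45% ± 3.93 (SD, n = 3) in WT. Its limma log2 difference was 2.21 (SE 0.45, adjusted p = 0.238). ENSMUST00000202361.3 of the same gene, named after its values were seen, took 17.9% ± 5.46 (SD, n = 3) in the homozygous group and 36.01% ± 2.64 (SD, n = 3) in WT, and its TPM was the 1 case with homozygous libraries all below WT (adjusted p = 0.303). ENSMUST00000020309.6 of Dnajb12, which encodes a membrane J-domain protein of the endoplasmic reticulum, stood at 3.52, 7.65 and 3.08 TPM against 1.25, 0 and 0 TPM after rounding. Abundances of isoforms that share exons are estimates, and TPM gives no count behind them.

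**Figure D5:**
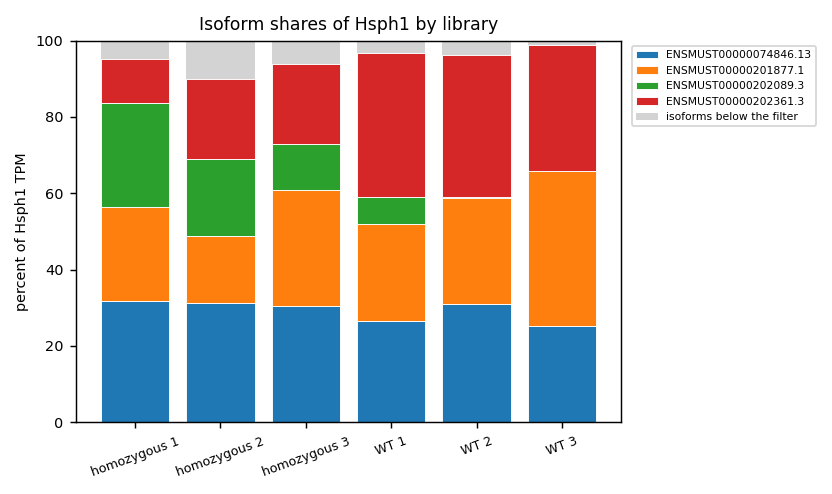
Share of Hsph1 TPM held by each of its 4 isoforms that passed the filter, in percent, for each of the 6 libraries, with the isoforms below the filter in grey. The green isoform (ENSMUST00000202089.3) holds 12.1% to 27.2% in the homozygous libraries and 0 to 6.98% in WT, and the red one (ENSMUST00000202361.3) is larger in every WT library.

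Among other genes of the chaperone network, from lists of cofactors and related families, 0 passed the adjusted threshold. Counts at an unadjusted p under 0.05 are to be read beside the 23.7% of all genes that were higher and the 0.55% that were lower. The small heat shock protein Cryab (alpha B-crystallin), a partner of desmin filaments, stood at 1120, 1671 and 1144 TPM against 1077, 705 and 473 TPM. Its groups did not overlap, although WT replicate 1 was close to 2 homozygous libraries, and the log2 difference was 0.86 (SE 0.31, adjusted p = 0.176). Among 4 tested genes of heat shock factors and their binding protein (Hsf1, Hsf2, Hsf4 and Hsbp1), 1 was higher at an unadjusted p under 0.05 and 0 lower. The median of this list was -0.08 relative to all genes. Hsf1, the main activator of the heat shock response, stood at 27.0, 30.9 and 32.6 TPM against 28.6, 24.8 and 22.2 TPM and overlapped (0.26 in log2, adjusted p = 0.285). Hsf2 stood at 10.4, 13.0 and 11.8 TPM against 7.68, 8.87 and 9.22 TPM and did not (0.41, adjusted p = 0.176). Hsf4 had the largest difference of this list relative to all genes, at -0.17, with overlap, and its own log2 difference was 0.10 (adjusted p = 0.70).

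HSP90 takes clients on from HSP70. Of 13 genes of the HSP90 family and its co-chaperones, 2 (Hsp90ab1 and Cdc37) were higher and 1 (Ppid) lower at an unadjusted p under 0.05, with a median of -0.10 relative to all genes. Hsp90ab1, the constitutive form, stood at 497, 620 and 606.5 TPM against 513, 427 and 344 TPM, and Hsp90aa1, the inducible form, at 37.0, 37.1 and 21.4 TPM against 28.2, 29.3 and 10.5 TPM. Both overlapped. Ppid (cyclophilin 40), a co-chaperone with peptidyl-prolyl isomerase activity, stood at 24.4, 19.2 and 20.5 TPM against 30.5, 27.5 and 27.6 TPM, with all homozygous libraries below WT and a log2 difference of -0.41 (SE 0.14, adjusted p = 0.171).

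Of 13 exchange factors and co-chaperones of HSP70, 3 were higher and 0 lower at an unadjusted p under 0.05, which is close to the share of all genes (23.7%). Bag3, the muscle co-chaperone that links HSP70 to Hspb8, stood at 50.1, 58.9 and 44.8 TPM against 38.6, 40.6 and 31.5 TPM, with no overlap (0.46 in log2, SE 0.16, adjusted p = 0.171). St13 (Hip), which stabilizes the ADP state of HSP70, had the largest difference of this list, at 45.3, 54.2 and 46.9 TPM against 35.9, 32.2 and 17.1 TPM (0.82 in log2, SE 0.26, adjusted p = 0.168). Stub1 (CHIP), the ubiquitin ligase of HSP70 clients, stood at 63.8, 59.5 and 55.7 TPM against 55.1, 54.5 and 75.1 TPM and overlapped (-0.03 in log2).

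The cytosolic chaperonin and prefoldin list (12 tested) had 3 genes higher and 0 lower at an unadjusted p under 0.05 and a median of -0.10 relative to all genes. Its largest difference relative to all genes was that of Pfdn2, a prefoldin subunit, at -0.35, with overlap (-0.09 in log2, adjusted p = 0.741). Not set against all genes, the largest was that of Tcp1, at 0.44 in log2 (adjusted p = 0.168), without overlap. Of 14 genes of the unfolded protein response, 4 were higher and 0 lower at an unadjusted p under 0.05, with a median of -0.0018 relative to all genes. Canx (calnexin), a membrane chaperone for glycoproteins, was largest, at 24.6, 37.7 and 33.6 TPM against 21.6, 25.7 and 12.1 TPM (0.71 in log2, SE 0.28, adjusted p = 0.189), with overlap. Among 4 tested J-domain proteins under other names, 1 (Gak, which uncoats clathrin vesicles) was higher and 0 lower at an unadjusted p under 0.05. The largest difference relative to all genes was that of Hscb, a factor of iron-sulphur cluster assembly, at -0.27. Hscb itself had nearly equal group means (14.9 TPM homozygous and 14.8 TPM WT, -0.0045 in log2, adjusted p = 0.987).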

How the data were processed

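The authors deposited 1 table of TPM per Ensembl isoform for the 6 quadriceps libraries, per the file headers. The submitters' processing notes name FastQC, Trimmomatic, HISAT2, kallisto and the build mm10, without roles or versions. TPM is a share of each library, so a change in a few abundant genes moves all others, and depth and counting error are unknown here. Each column matched 1 labelled sample, and 0 columns were left over.

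The 105129 isoform rows were summed to 33641 gene symbols and transformed to log2(TPM + 1), which understates the change of low genes. A gene was tested if 3 or more libraries held 1 TPM or more of it (11099 genes). Genotype was the single factor of a limma model (version 3.58.1, R 4.3.3, mean-variance trend, robust fit), with Benjamini-Hochberg adjustment over all genes, and isoforms (21165) in the same way. Since the table holds TPM, the branch of the design for counts was not used. On simulated data with 200 of 11099 genes changed, the test recovered 0%, 42% and 89.5% of them at log2 changes of 0.5, 1 and 2. The simulation drew each gene independently around its mean and spread. It had no shift shared by most genes and no library that stood apart, unlike these data, so its rates need not hold for them.

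The members and lists were chosen with earlier results of these data known. Members named with values are a list of 29 chaperones, the 5 with the largest and the 5 with the smallest difference relative to all genes, the 5 with the smallest p in each direction, and the 5 isoforms with the smallest p; other genes of the pathway are Hsf1, Hsf2, Hsp90aa1, Hsp90ab1, Bag3, Stub1, Cryab and the largest difference of each list. Gene positions are from GENCODE M21 and promoter windows from RefSeq, both on GRCm38, which mm10 names as well. A search of protein sequences for the J-domain HPD triplet was not run. Alternatives were quantile normalization, median centring, a pseudocount of 0.1, no filter, library weights, a slow-fibre covariate, a replicate block and leaving out each library.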

Additional observations from a re-analysis of the deposited data

How the results depend on the processing

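On simulated data without a shared shift or a library that stood apart, the test recovered 0%, 42% and 89.5% of genes changed by 0.5, 1 and 2 on the log2 scale. Of 34 named members, 22 kept the sign of their difference relative to all genes in all 13 alternatives, of which median centring, no filter and the replicate block cannot move it, and 12 did not, in 28 values. Members past the adjusted threshold numbered 2 with library weights and 0 in every other alternative. At an unadjusted p under 0.05, higher members numbered 25 as reported, 6 with quantile normalization, 4 with median centring, 0 with the slow-fibre covariate and 9 to 27 with 1 library left out, and lower members 1 with quantile normalization and 1 with median centring. Homozygous libraries were all above WT for 10 members with quantile normalization and 5 with median centring, and all below for 1 and 2, and for 0 to 1 with 1 library left out. The replicate numbers do not pair the samples (correlations of same-numbered libraries -0.07, 0.06 and -0.01, others from -0.14 to 0.13), and with a replicate block 0 members passed and 22 were higher at an unadjusted p under 0.05. The relative differences that changed sign with the slow-fibre covariate were Hspa1b (-0.05), Hspa4 (-0.0039), Hspa8 (0.10), Dnaja3 (0.08), Dnajb5 (0.04), Dnajb9 (-0.23), Dnajb11 (0.06), Dnajc10 (-0.01) and Dnajc4 (0.01). Others were Hsph1 with quantile normalization (-0.01) and a pseudocount of 0.1 (-0.04), Dnajc10 with that pseudocount (-0.0004), and Dnajb9 (-0.03) and Dnajb11 (0.06) with library weights. With 1 library left out, Hsph1 ranged from -0.03 to 0.08, Hspb2 from -0.07 to 0.22, Hspb3 from -0.05 to 0.32, Dnajb9 from -0.15 to 0.36, Dnajb11 from -0.06 to 0.04 and Dnajc10 from -0.09 to 0.08. The cause was not tested.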
